A study of Mus musculus with 6 samples.

Results

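The genes described here are 8 markers of the pyramidal neurons of hippocampal field CA3: Bok, Iyd, Cdh24, Prss35, Coch, Slc9a4, Chgb and Nectin3 (older symbol Pvrl3). They were taken by symbol from a table of 51912 genes, and all 8 were found, Nectin3 under its current symbol. Their transcript levels were measured by RNA sequencing in the hippocampus of 2 inbred mouse strains, with 3 DBA/2 libraries and 3 C57BL/6 libraries. The labels name no treatment, transgene or engineered allele in either strain, and give no sex, age or substrain. They do not say plainly that each library came from its own animal; the p-values therefore rest on library-to-library spread, part of which may be technical. The question of the series is how transcript levels compare between the strains.

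Field CA3 lies between the dentate gyrus and field CA1. Its pyramidal neurons receive mossy fibre input from dentate granule cells, excite one another through recurrent collaterals, and send Schaffer collaterals to CA1. The markers are genes whose transcripts are enriched in these neurons relative to the other hippocampal fields, and they belong to unrelated families. Cdh24 and Nectin3 encode adhesion molecules, Slc9a4 an ion exchanger, Iyd a deiodinase, Chgb, Prss35 and Coch secreted proteins, and Bok a member of the Bcl-2 family. Some are also well known elsewhere: Iyd in the thyroid, Coch in the inner ear and Chgb in endocrine and many neuronal cells. In bulk tissue, more cells of a type and more RNA per cell cannot be told apart.

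Total counts were 13839366 to 16912153 in DBA/2 and 13867280 to 20185683 in C57BL/6. Xist, the transcript of the inactive X chromosome in female cells, had 12, 10 and 2 counts in the DBA/2 libraries, against 3214, 1 and 6995 counts in the C57BL/6 libraries. C57BL/6 replicates 1 and 3 therefore stand apart from the other libraries on this transcript, and results are also given without them. Markers of thalamus and habenula, which border the hippocampus, summed to 311 to 400.3 CPM (counts scaled to a common library size with TMM factors) in DBA/2 and 551 to 794 CPM in C57BL/6. By the test described below, 7 of 16 were lower in DBA/2 and none higher, against 13.7% and 9.09% of all tested genes. For 13 of the 16 every DBA/2 library was below every C57BL/6 library, against 20.1% of all tested genes. None of these 16 markers was at 0 counts in all libraries. Their part in the differences described below was not tested.

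Of the 8 markers, 2 were higher in DBA/2 and none was lower. Cdh24 was 2.07-fold higher and Slc9a4 1.53-fold higher, while the other 6 did not pass the test and their estimated folds lay between 0.865 and 1.21. All 8 passed the filter on low counts. Differences were tested by quasi-likelihood in edgeR, p-values were adjusted by Benjamini-Hochberg over 17517 genes, and those with adjusted p below 0.05 count as called. By this rule 22.8% of all tested genes were called, 9.09% higher and 13.7% lower in DBA/2, against 2 of the 8 markers, or 25.0%. The median log2 fold change (DBA/2 over C57BL/6) was 0.09 over the markers and 0.00 over all tested genes.

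**Figure D1:**
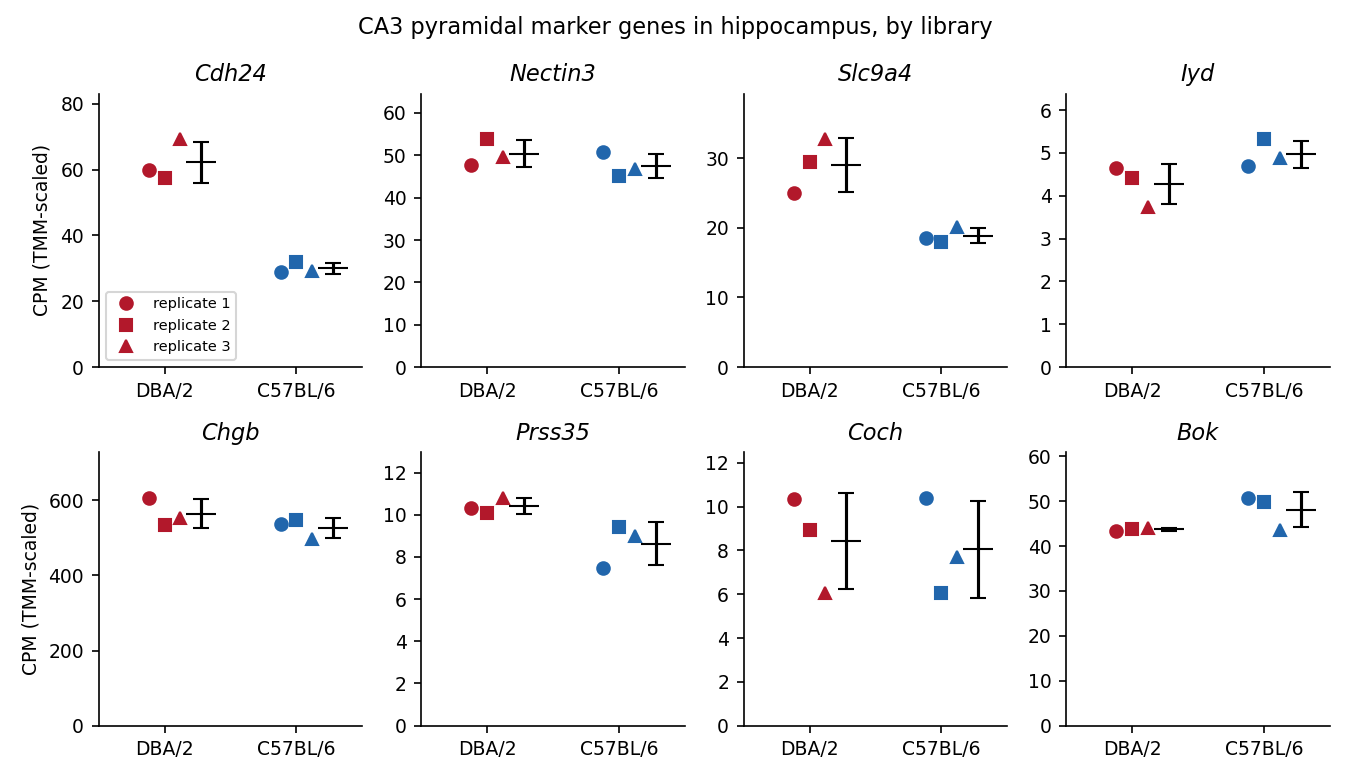
Level of each CA3 marker gene in CPM (y axis from 0) in the 3 DBA/2 libraries (red) and the 3 C57BL/6 libraries (blue), with a marker shape for each replicate number and the mean and SD in black. The libraries of the strains are apart for Cdh24, Slc9a4, Prss35 and, with DBA/2 lower, Iyd, and the spread within a strain is widest for Coch.

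Cdh24 encodes cadherin 24, a calcium-dependent adhesion protein that binds catenins. The region before its start is shown because Cdh24 differed most, next to that of Chgb, the most abundant marker, which was not called. Both are RefSeq sequences of GRCm38.p6, 250 bases before to 50 bases after the start site, on the gene's own strand, and the reference genome is that of C57BL/6J. Capitals mark the GC box GGGCGG on either strand and, in Chgb, the cyclic AMP response element TGACGTCA, whose letters read the same on both strands. The Cdh24 sequence lies at chr14:54641315-54641614 on the minus strand, and the Chgb sequence at chr2:132781392-132781691 on the plus strand.
Cdh24: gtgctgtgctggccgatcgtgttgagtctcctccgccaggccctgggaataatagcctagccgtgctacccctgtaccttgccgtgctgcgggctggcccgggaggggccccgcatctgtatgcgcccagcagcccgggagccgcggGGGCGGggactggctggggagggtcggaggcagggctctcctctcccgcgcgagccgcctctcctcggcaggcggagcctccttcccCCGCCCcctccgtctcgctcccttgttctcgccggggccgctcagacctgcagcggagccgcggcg
Chgb: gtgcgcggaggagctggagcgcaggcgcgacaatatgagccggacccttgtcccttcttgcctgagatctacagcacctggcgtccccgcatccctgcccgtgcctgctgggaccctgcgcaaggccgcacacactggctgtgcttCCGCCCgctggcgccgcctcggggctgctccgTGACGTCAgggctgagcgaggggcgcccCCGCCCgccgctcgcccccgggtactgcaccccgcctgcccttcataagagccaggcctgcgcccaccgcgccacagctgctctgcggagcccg

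Promoter sequences were found for 7 of the 8 markers, all but Slc9a4. The GC box was present in 6 of these 7, and in 35.7% of all 32851 promoters of the same length. The cyclic AMP response element was present in 1 of 7, that of Chgb, and in 1.79% of all promoters. The E-box CACGTG was in none of the 7 and in 7.15% of all, and the TATA box letters TATAAA, searched on both strands, were in 2 of 7 (Iyd and Coch) and in 13.6% of all. Nectin3 had 5 GC boxes, Coch 3, and Cdh24 and Chgb 2 each. The GC content was between 72.7% and 73.7% for Cdh24, Chgb, Coch and Nectin3 and between 49% and 56.3% for Iyd, Prss35 and Bok, with a median of 52.7% over all promoters. The GC-rich promoters are thus those of Cdh24, which was called, and of Chgb, Coch and Nectin3, which were not. These letters are a description of the windows.

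Cdh24 (chromosome 14, 54631231 to 54641364, minus strand, GENCODE M21 on GRCm38) had 59.8, 57.5 and 69.2 CPM in DBA/2, against 28.9, 31.9 and 29.2 CPM in C57BL/6. The lowest DBA/2 library lay above the highest C57BL/6 library by a wide margin. The means were 62.2 ± 6.21 CPM in DBA/2 and 30.0 ± 1.6 CPM in C57BL/6 (SD, n = 3 each), a log2 fold change of 1.05 ± 0.07 (SE) with adjusted p = 1.08e-10 by the edgeR quasi-likelihood fit. The 95% interval of the fold was 1.87 to 2.30. An opposite-strand gene that overlaps Cdh24, Gm17606, held 23 counts over all libraries, and no other gene with at least 10 counts matched it over at least 200 bases and 0.5 of the shorter transcript at 95% identity. With the Xist-holding libraries left out, so that replicate 2 stood alone for C57BL/6 and was assumed to vary like the DBA/2 libraries, the log2 fold change was 0.96 and the call held.

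Nectin3, an immunoglobulin-like adhesion molecule of puncta adherentia, where it pairs with nectin 1 between mossy fibre terminals and CA3 dendrites, showed no such difference. Its levels were 47.7, 53.8 and 49.6 CPM in DBA/2, against 50.7, 45.1 and 46.7 CPM in C57BL/6, and the strains overlapped. The log2 fold change was 0.08 ± 0.07 (SE), with adjusted p = 0.415 by the edgeR quasi-likelihood fit and a 95% interval of the fold from 0.964 to 1.17. A change of the size seen in Cdh24 lies outside that interval.

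Slc9a4 (chromosome 1, 40580081 to 40630725, plus strand) encodes the plasma membrane sodium/proton exchanger NHE4, which takes part in pH regulation. It had 24.9, 29.4 and 32.7 CPM in DBA/2, against 18.5, 17.9 and 20.1 CPM in C57BL/6. Every DBA/2 library was above every C57BL/6 library, and the DBA/2 libraries were spread more widely. The means were 29.0 ± 3.89 CPM in DBA/2 and 18.9 ± 1.12 CPM in C57BL/6 (SD, n = 3 each), and the log2 fold change was 0.61 ± 0.09 (SE), with adjusted p = 2.65e-05 by the edgeR quasi-likelihood fit. The 95% interval of the fold ran from 1.34 to 1.75, below that of Cdh24. The 2 opposite-strand genes that overlap Slc9a4, Gm35801 and Gm37435, held 0 and 10 counts over all libraries.

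Iyd encodes iodotyrosine deiodinase, which in the thyroid recovers iodide from iodotyrosines. It was a low marker, with 4.64, 4.42 and 3.75 CPM in DBA/2, against 4.70, 5.32 and 4.89 CPM in C57BL/6. The DBA/2 libraries all lay below the C57BL/6 libraries, though replicate 1 of each strain had nearly the same value, and the log2 fold change of -0.21 ± 0.17 (SE) did not pass (adjusted p = 0.424, edgeR quasi-likelihood test). Its 52 to 98 counts per library allowed folds from 0.681 to 1.10 within the 95% interval.

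Among the secreted proteins, Chgb encodes chromogranin B, an acidic protein of dense-core vesicles, and was the most abundant marker. It had 607, 535 and 552 CPM in DBA/2, against 537, 547 and 496 CPM in C57BL/6. These ranges overlapped, and the log2 fold change of 0.10 ± 0.05 (SE) did not pass (adjusted p = 0.175, edgeR quasi-likelihood test). With 7499 to 10343 counts per library, its 95% interval of the fold was narrow, 0.996 to 1.16.

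Prss35, a secreted protein related to serine proteases, had 10.3, 10.1 and 10.8 CPM in DBA/2, against 7.46, 9.40 and 8.98 CPM in C57BL/6. The libraries did not overlap, with DBA/2 above, but the spread within C57BL/6 was large relative to the gap. The log2 fold change was 0.27 ± 0.13 (SE), with adjusted p = 0.127 by the edgeR quasi-likelihood fit, and a 95% interval of the fold from 1.01 to 1.44 before adjustment for the number of genes. Without the Xist-holding libraries the log2 fold change was 0.15.

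Coch, whose product cochlin is an extracellular matrix protein of the inner ear, varied more than any other marker within a strain. It had 10.3, 8.95 and 6.05 CPM in DBA/2, against 10.4, 6.05 and 7.68 CPM in C57BL/6, and the strains overlapped fully. The coefficient of variation was 25.9% in DBA/2 and 27.4% in C57BL/6, against a median over tested genes of 7.9% and 6.98%. Choroid plexus markers, 10 genes of which none was called in the fit without a replicate block and none was at 0 in all libraries, summed to 2751, 1979 and 1250 CPM in the same DBA/2 libraries, against 1523, 980 and 679 CPM in the C57BL/6 libraries. In DBA/2 the libraries ranked alike for both measures, whereas in C57BL/6 replicates 2 and 3 ranked the other way round; the part of choroid plexus in the Coch levels was not tested. The log2 fold change of Coch was 0.07 ± 0.22 (SE, adjusted p = 0.864, edgeR quasi-likelihood test), which allowed folds from 0.745 to 1.49. It was 0.49 without the Xist-holding libraries and 0.30 without C57BL/6 replicate 1 alone, and Coch was not called in either fit.

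Bok encodes a Bcl-2 family protein of the group that contains Bax and Bak. It had 43.4, 43.8 and 44.0 CPM in DBA/2, against 50.8, 49.9 and 43.6 CPM in C57BL/6. The DBA/2 libraries were nearly equal, with a coefficient of variation of 0.737%, and C57BL/6 replicate 3 fell among them. The log2 fold change was -0.13 ± 0.07 (SE), with adjusted p = 0.167 by the edgeR quasi-likelihood fit and folds from 0.828 to 1.003 in the 95% interval.

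**Figure D2:**
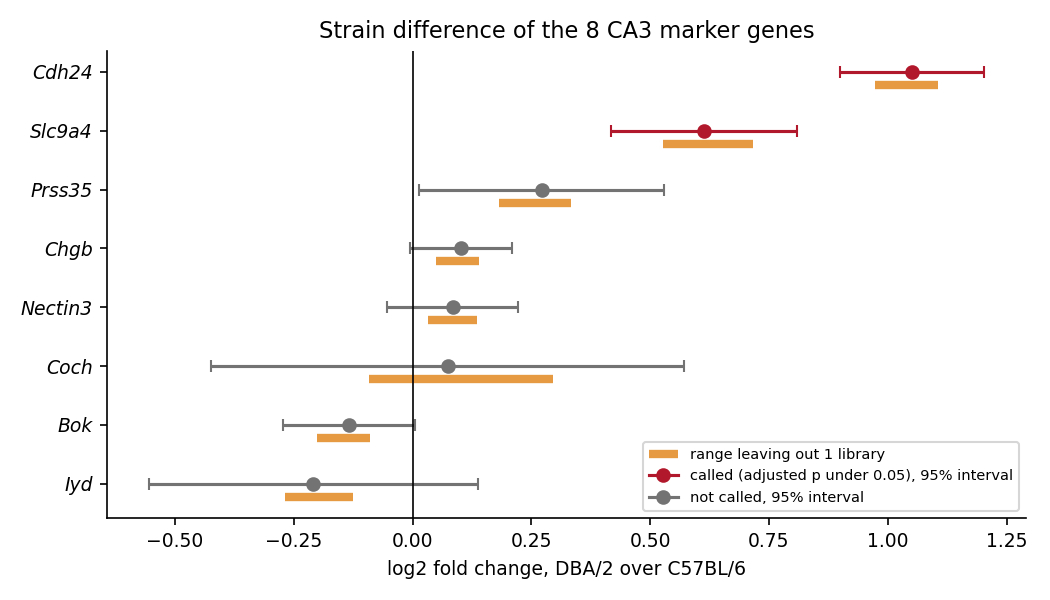
Log2 fold change (DBA/2 over C57BL/6) of each CA3 marker gene with its 95% interval, in red for the called genes and in grey for the others, and in orange the range when 1 library at a time is left out. Cdh24 at 1.05 and Slc9a4 at 0.61 lie right of 0 throughout, as does Prss35 at 0.27, which was not called after adjustment. Of the orange ranges only that of Coch includes 0.

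Without the Xist-holding libraries the log2 fold change of Slc9a4 was 0.69 and its call held. In that fit it was 0.16 for Nectin3, 0.05 for Chgb, -0.19 for Bok and -0.31 for Iyd, and none of these 4 was called.

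For 4 of the 8 markers, or 50%, DBA/2 and C57BL/6 values had no overlap, 3 with DBA/2 higher and 1 with DBA/2 lower. Over all tested genes this share was 36.8%, with 16.7% higher and 20.1% lower. Of the 8 log2 fold changes 6 were above 0, against 50.6% of all tested genes. The geometric mean of the 8 markers was 31.3, 31.0 and 30.1 CPM in DBA/2, against 26.9, 26.1 and 25.9 CPM in C57BL/6. Over the 6 markers that were not called it was 29.2, 28.2 and 25.8 CPM in DBA/2, against 28.2, 26.8 and 26.4 CPM in C57BL/6, and these values overlapped. Those 6 were picked by their calls in the same data, so the overlap restates the calls and is no further evidence.

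The called markers were also set against the others within each library. Cdh24 stood at 2.09, 2.03 and 2.59 times the geometric mean of the other 7 markers in DBA/2, against 1.09, 1.26 and 1.15 times in C57BL/6. For Slc9a4 this ratio was 0.771, 0.943 and 1.10 in DBA/2, against 0.655, 0.652 and 0.750 in C57BL/6. Both ratios were higher in each DBA/2 library than in any C57BL/6 library. These ratios use the same values as the calls, so they restate the calls and are no further support. The geometric mean that Slc9a4 was set against also holds Cdh24, and no such ratio was computed for other genes. Bok and Iyd had lower ratios in each DBA/2 library than in any C57BL/6 library, and the other 4 overlapped; the geometric mean each was set against holds Cdh24 and Slc9a4.

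Per length, Chgb, Bok and Cdh24 led the markers in both strains, in that order by their means. On the deposited FPKM scale (counts scaled by exon length and library size), Chgb averaged 208 ± 13.8 FPKM in DBA/2 and 190.2 ± 9.17 FPKM in C57BL/6 (SD, n = 3 each), above all other markers. Bok followed with 23.9 ± 0.163 FPKM in DBA/2 and 25.9 ± 2.04 FPKM in C57BL/6. Cdh24 averaged 22.9 ± 2.2 FPKM in DBA/2, where its libraries overlapped those of Bok, and 10.9 ± 0.577 FPKM in C57BL/6, where all were below those of Bok.

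Slc9a4 came next with 6.41 ± 0.846 FPKM in DBA/2 and 4.09 ± 0.255 FPKM in C57BL/6, followed by Nectin3 with 3.98 ± 0.259 and 3.69 ± 0.219 FPKM in the same strains (SD, n = 3 each). The libraries of this pair were apart in DBA/2, where Slc9a4 was at least 5.51 FPKM and Nectin3 at most 4.27 FPKM, and overlapped in C57BL/6, where Slc9a4 was at least 3.89 FPKM and Nectin3 at most 3.93 FPKM. The lowest 3 markers were Prss35 (3.04 ± 0.102 in DBA/2 and 2.48 ± 0.297 FPKM in C57BL/6), Coch (2.84 ± 0.742 and 2.66 ± 0.722 FPKM) and Iyd (2.65 ± 0.293 and 3.03 ± 0.193 FPKM, SD, n = 3 each). Prss35 and Iyd did not overlap in either strain and stood in opposite order: Prss35 was at 2.95 to 3.15 FPKM and Iyd at 2.32 to 2.88 FPKM in DBA/2, against 2.14 to 2.70 FPKM for Prss35 and 2.86 to 3.24 FPKM for Iyd in C57BL/6. Neither gene was called between the strains, and the wide range of Coch overlapped both of them in each strain, so its place was not resolved. Among the 31719 genes with a count, the mean FPKM of Chgb was at the 99.7th percentile, that of Bok at the 93.7th and that of Cdh24 at the 90.1st, and even the lowest markers, Prss35 and Coch, were at the 65.3rd.

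Cdh24 lay among many genes that differed between the strains. Of 33 tested genes whose start lies within 500 kb of it, 14 were called, or 42.4%, 2 higher and 12 lower in DBA/2, against 22.8% of all tested genes. The nearest, Acin1, named for its place and not by its change, ends 797 bases before the start of Cdh24 on the same strand and fell to 143 CPM in DBA/2, against 179 CPM in C57BL/6 (adjusted p = 1.85e-05, edgeR quasi-likelihood test). Psmb5, a catalytic subunit of the proteasome on the other side of Cdh24, fell to 33.9 ± 2.19 CPM in DBA/2, against 62.7 ± 5.64 CPM in C57BL/6, and Haus4, a subunit of the augmin complex, rose to 5.75 ± 0.305 CPM in DBA/2, against 2.70 ± 0.131 CPM in C57BL/6 (SD, n = 3 each). Ppp1r3e, a regulatory subunit of protein phosphatase 1, and Myh7, a myosin heavy chain, fell by 1.76 and 1.0 on the log2 scale. Genes on both sides of Cdh24 were thus lower in DBA/2 while Cdh24 was higher.

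Slc9a4 had few tested neighbours, and none was called. For all 5 genes within 500 kb the adjusted p was at least 0.248 by the edgeR quasi-likelihood fit. The closest was Slc9a2, another sodium/proton exchanger, which had 38.1 ± 5.52 CPM in DBA/2 and 36.7 ± 2.17 CPM in C57BL/6 (SD, n = 3 each). The 2 exchanger genes of this region therefore had different log2 fold changes, 0.61 ± 0.09 for Slc9a4 and 0.05 ± 0.09 for Slc9a2 (SE); the difference between them was not tested.

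**Figure D3:**
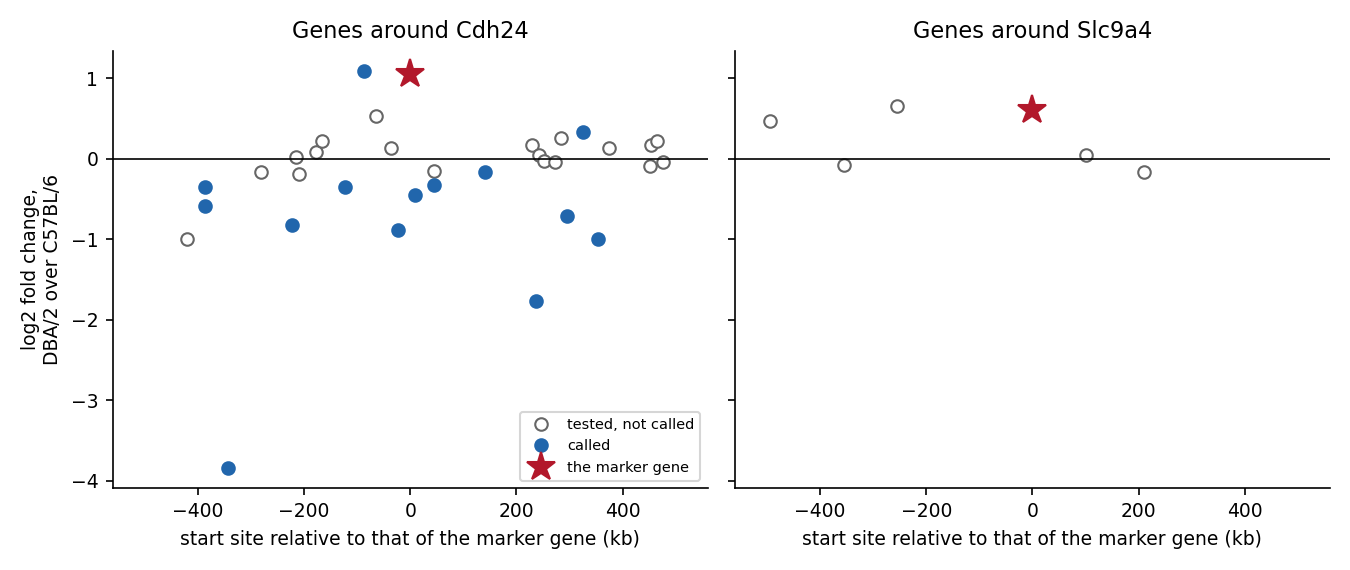
Log2 fold change (DBA/2 over C57BL/6, y axis) of the tested genes around Cdh24 (left, 33 genes) and Slc9a4 (right, 5 genes), by the distance in kb of their start site from that of the marker gene (red star). Filled points were called. Around Cdh24, 12 of the 14 called genes lie below 0, and around Slc9a4 no gene was called.

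By the pattern over the 6 libraries, the genes most like Cdh24 among 11472 compared were Abcb8, Slc27a2 and Scg5, at Euclidean distances of 0.11, 0.18 and 0.20 between centred log2 CPM values, against a median distance of 1.31. For Slc9a4 they were Krt10, Jade2 and Psrc1, at distances of 0.19, 0.20 and 0.25, against a median of 0.84. Each of these 6 genes was called higher in DBA/2, and without the Xist-holding libraries Krt10 had a log2 fold change of 0.66, against 0.51 with them, and was no longer called (adjusted p = 0.0604, edgeR quasi-likelihood test). The 6 points share the strain difference, so the likeness is a description of these libraries.

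Each marker was then placed in its own gene family. Over all tested genes 22.8% were called, 9.09% higher and 13.7% lower in DBA/2. The family counts here and below are a description beside those shares, and no family was tested as a set. Of 21 tested classical cadherins and catenins 4 were higher, Cdh24 included, and 2 lower, with a median log2 fold change of -0.04. Cdh24 had the highest value of this family, and the next, Cdh12, had 15.7 ± 0.233 CPM in DBA/2 and 12.6 ± 0.609 CPM in C57BL/6 (SD, n = 3 each). Cdh7 and Cdh4 fell by 0.46 and 0.35 on the log2 scale. The catenins, which link cadherins to the cytoskeleton, were not called, among them Ctnnb1 with 422 ± 8.46 CPM in DBA/2 and 454 ± 11.7 CPM in C57BL/6 (SD, n = 3 each).

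In the family of Nectin3, the nectins, the related Cadm proteins, Pvr and afadin, 1 of 10 genes was higher and 2 lower, with a median log2 fold change of -0.10. Afdn encodes afadin, which ties nectins to actin, and rose to 146 ± 11.3 CPM in DBA/2, against 126 ± 5.70 CPM in C57BL/6 (SD, n = 3 each). Pvr, the nectin-like poliovirus receptor, fell to 7.95 ± 1.11 CPM in DBA/2, against 11.8 ± 1.03 CPM in C57BL/6, and Cadm4 to 137 ± 11.9 CPM in DBA/2, against 157 ± 6.75 CPM in C57BL/6 (SD, n = 3 each). The partner of Nectin3 at mossy fibre contacts, Nectin1, had 36.7 ± 1.51 CPM in DBA/2 and 41.4 ± 1.44 CPM in C57BL/6 and was not called (adjusted p = 0.0601, edgeR quasi-likelihood test).

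Of 11 sodium/proton exchangers 2 were higher, Slc9a4 and Slc9a3, and none was lower, with a median log2 fold change of 0.06. Slc9a3, a low gene here, had 2.86 ± 0.186 CPM in DBA/2 and 1.52 ± 0.113 CPM in C57BL/6 (SD, n = 3 each). Of 9 tested genes of thyroid hormone handling, Iyd among them, 2 were higher and none lower, with a median of -0.09. Slco1c1, which encodes a thyroid hormone transporter, had a log2 fold change of 0.35, and the deiodinases Dio2 and Dio3 were not called.

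Of 13 granin and peptide processing genes 1 was higher and 5 lower, with a median log2 fold change of -0.05. Scg5, which encodes the chaperone 7B2 of prohormone convertase 2, rose to 361 ± 27.4 CPM in DBA/2, against 166 ± 9.0 CPM in C57BL/6, and the convertase gene Pcsk2 fell to 230.3 ± 10.8 CPM in DBA/2, against 279 ± 5.85 CPM in C57BL/6 (SD, n = 3 each). Cpe, a carboxypeptidase that trims peptide precursors, fell to 1791 ± 3.77 CPM in DBA/2, against 2332 ± 56.8 CPM in C57BL/6 (SD, n = 3 each). Chga, the chromogranin most like Chgb, fell by 0.26 on the log2 scale (adjusted p = 0.000809, edgeR quasi-likelihood test), while Chgb had a log2 fold change of 0.10 and was not called.

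Of 9 tested secreted serine proteases none was higher and 3 were lower, with a median of 0.00, and Klk6 and Klk8, 2 kallikreins, fell by 2.37 and 0.83 on the log2 scale. Prss23, the relative of Prss35, had 10.1 ± 0.296 CPM in DBA/2 and 9.38 ± 1.25 CPM in C57BL/6 (SD, n = 3 each). Of 6 genes whose proteins hold an LCCL domain, Coch among them, Vit was lower, with 3.67 ± 0.256 CPM in DBA/2 and 5.94 ± 0.694 CPM in C57BL/6 (SD, n = 3 each), and the median was -0.21. Of 15 tested Bcl-2 family genes 2 were higher and 3 lower, with a median of -0.06. Those called were BH3-only genes, with Pmaip1 at a log2 fold change of 0.90 and Bmf and Bcl2l11 at -0.68 and -0.53, whereas Bax and Bak1, the multidomain relatives of Bok, were not called.

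In the fits that leave out the Xist-holding C57BL/6 libraries or take Xist presence as a covariate, the calls of Cdh24, Slc9a4, Scg5, Cpe, Pcsk2, Pvr, Slco1c1, Klk6 and Klk8 held. Those of Cdh4, Cdh7, Cdh12, Afdn, Cadm4, Slc9a3, Vit, Pmaip1, Bmf and Bcl2l11 were lost in both, with adjusted p of 0.0816 (Cdh4) to 0.416 (Cdh12). Without those libraries the log2 fold changes were larger for Slc9a3 (0.97), Cdh4 (-0.45) and Cadm4 (-0.22) than with them, and smaller for Bmf (-0.60), Vit (-0.59), Bcl2l11 (-0.43), Cdh7 (-0.29), Pmaip1 (0.70), Cdh12 (0.25) and Afdn (0.18). These fits rest on C57BL/6 replicate 2 as the only library of its strain without Xist. Leaving out 1 library also ended calls: DBA/2 replicate 1 for Cdh4 and Pmaip1, DBA/2 replicate 2 for Cadm4, and DBA/2 replicate 3 for Cdh4, Cdh7 and Cpne4. C57BL/6 replicate 1 did so for Cdh7, Cdh12, Afdn, Cadm4, Bcl2l11 and Cpne4, C57BL/6 replicate 2 for Cdh4 and Cadm4, and C57BL/6 replicate 3 for Cdh4, Cdh12, Pmaip1 and Bmf. The adjusted p then reached at most 0.124 (Cdh4).

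**Figure D4:**
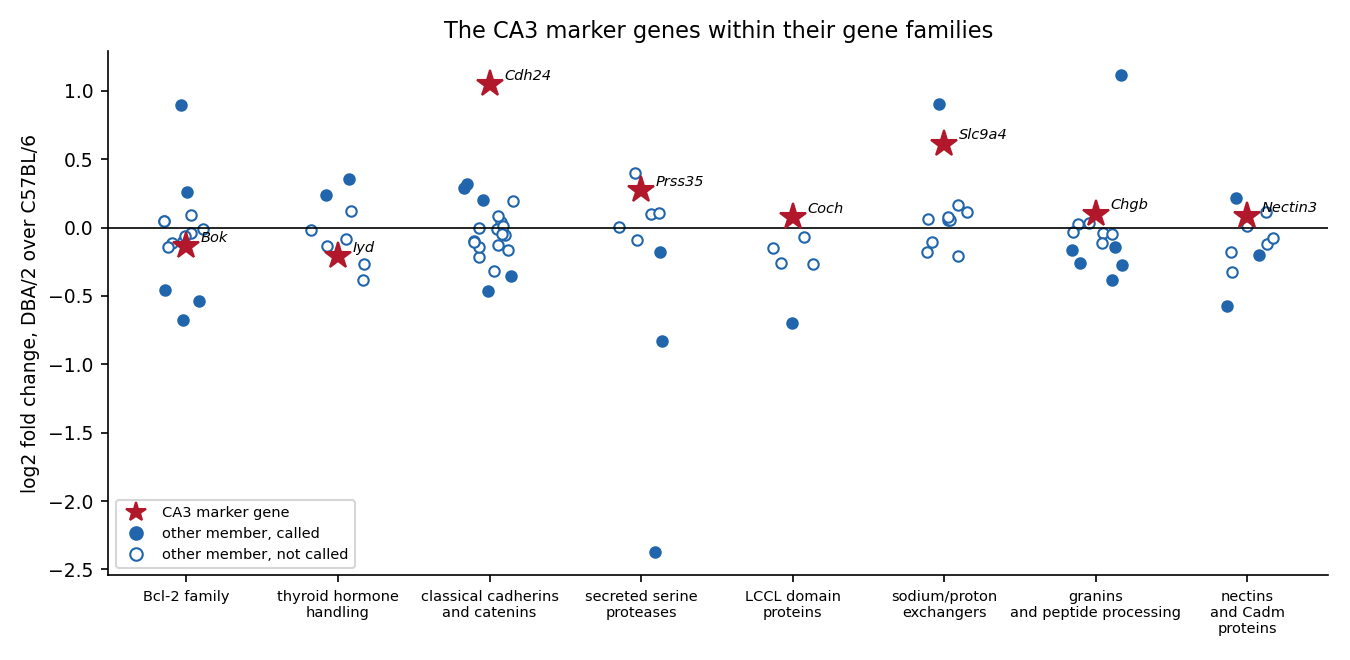
Log2 fold change (DBA/2 over C57BL/6, y axis) of each tested gene of the 8 families (x axis), with the CA3 marker genes as red stars and other genes as circles, filled where called. Cdh24 is the highest of its family at 1.05, and Slc9a4 is second to Slc9a3 in its own.

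Genes that mark other cells give the setting in which the CA3 markers were read. Their counts stand beside 9.09% of all tested genes called higher and 13.7% called lower in DBA/2. Of 5 further genes enriched in CA3, Dkk3 was higher and Cpne4 lower, at log2 fold changes of 0.19 and -0.19, and Grik4, the kainate receptor subunit of CA3 neurons, had 60.6 ± 3.37 CPM in DBA/2 and 59.6 ± 1.75 CPM in C57BL/6 (SD, n = 3 each) and was not called. With the Xist-holding libraries left out, which leaves 1 C57BL/6 library, their log2 fold changes were 0.16 and -0.18 and the calls were lost (adjusted p = 0.241 and 0.207, edgeR quasi-likelihood test). Of 12 CA1 and CA2 markers 4 were higher and 2 lower, and of 14 dentate granule cell markers 4 were higher and 3 lower. Both lists thus held calls in either direction, and CA1 and CA2 were not counted apart. Of 12 interneuron markers 1 was higher and 3 lower, and of 10 neocortex and striatum markers 4 were higher. Of 10 myelin markers 2 were called lower, but none had a log2 fold change above 0, and the median was -0.50. For 9 of them every DBA/2 library was below every C57BL/6 library, against 20.1% of all tested genes. Of 10 astrocyte markers 1 was higher and 7 lower, and of 10 microglia markers 7 were lower. The thalamus and habenula list had the lowest median log2 fold change of these lists, -1.38, and the further CA3 genes a median of 0.03.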

How the data were processed

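RNA of frozen hippocampus from DBA/2 and C57BL/6 mice was extracted with TRIzol, made into libraries with an NEBNext Ultra kit and run on an Illumina HiSeq, per the labels' protocols. Groups follow the strain label. The tools named are HISAT2 2.0.1, Trimmomatic 0.30 and Cufflinks 2.2.1, and the build GRCm38, per the submitters' processing notes. This build is the genome of C57BL/6J, and whether DBA/2 reads aligned to it equally well was not tested. Which program, annotation and strand setting gave the counts is not given in the sources used here. Raw counts of each gene, as whole numbers, were deposited by the authors. The authors also deposited FPKM values, which matched, within 0.005, the counts scaled by exonic length and by library total. The exonic length of each gene was deposited in the same table. Another 12 per-sample columns, whose names fit none of the labelled samples, were left unused. No row lacked a gene name.

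Counts were tested with the quasi-likelihood test of edgeR 4.0.16 in R 4.3.3 (robust fit, TMM factors, filterByExpr by strain) over 17517 genes, with Benjamini-Hochberg adjustment. The SE of a log2 fold change is its size over the square root of F, and 95% intervals use the fit's degrees of freedom without adjustment for the number of genes. For the DBA/2 against C57BL/6 comparison, the test was tried on simulated data of 17291 genes. It recovered 67% of 100 genes changed 1.5-fold and 94% of 100 changed 2-fold, and 5.85% of its calls were false. The simulation gave genes of like abundance the same spread and left all other genes equal between the strains. These shares need not hold for the data, where 4000 genes were called. Coordinates come from GENCODE M21, which holds 99.6% of the gene IDs. Similar transcripts were sought with BLAST 2.17.0. The chi-square per degree of freedom was 3.16 to 3.93 between libraries of a strain, so none repeated another.

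The markers, lists and tests were chosen with earlier results of these data known. Named genes are the 8 markers, up to 3 called genes of the largest change per list (the 2 most abundant where none was called), up to 4 called neighbours of a called marker, the 3 genes of closest pattern, and Xist; the text prints most of them, and some items are not reported here. Acin1, Ctnnb1, Nectin1, Slc9a2, Prss23, Chga, Dio2, Dio3, Bax, Bak1 and Grik4 were added for their role or place after values were seen. Alternatives were DESeq2 1.42.0 size factors and Wald test, limma-voom (limma 3.58.1), a replicate block, scaling by library size alone, testing all genes with counts or only those averaging 5 CPM or more, each library left out, libraries with over 100 Xist counts left out or Xist presence as a covariate, and counts of similar genes summed.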

Additional observations from a re-analysis of the deposited data

How the results depend on the processing

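Cdh24 and Slc9a4 were called higher in DBA/2, and no CA3 marker was called lower, under each of the 16 alternatives. Over these the log2 fold change ran from 0.96 to 1.10 for Cdh24 and from 0.53 to 0.72 for Slc9a4, and the highest adjusted p was 1.80e-06 and 0.00235. Iyd had 15 alternatives, since it was below a mean of 5 CPM. The 6 markers that were not called stayed so, with the sign of Coch turning without DBA/2 replicate 1 (-0.09) or C57BL/6 replicate 2 (-0.07). Over all genes, 4000 were called, 1593 higher and 2407 lower; leaving out 1 library gave 3131 to 3717 calls (1151 to 1483 higher, 1980 to 2252 lower). Without the Xist-holding libraries 2012 were called (691 higher, 1321 lower) and with Xist presence as a covariate 2026 (659 higher, 1367 lower); fewer libraries or residual degrees of freedom enter these fits. Over all tested genes the replicate numbers showed no evident pairing, with correlations of deviations of 0.13, -0.08 and 0.00 between same-numbered libraries. Such correlations cannot show that no group of genes follows the replicate numbers. The choroid plexus sums fell in the order of the replicate numbers in both strains. They were 2751, 1979 and 1250 CPM in DBA/2, against 1523, 980 and 679 CPM in C57BL/6. The replicate block gave 3827 calls, with log2 fold changes of 1.05 for Cdh24 and 0.62 for Slc9a4. Under the block 5 choroid plexus markers were called higher, against 0 without it (Ttr 0.97, Kl 0.43), and 12 thalamus and habenula and 9 myelin markers lower, against 7 and 2. For the other named genes, 945 values under alternatives kept sign and call, 99 lost the call, 4 gained it, and 15 turned sign without a call in either fit (Slc9a2, Dio3, Bax, Grik4 and Xist). Iyd, Prss35 and Coch had the fewest counts, 52 to 180 per library. Coch also had the widest spread between libraries, with coefficients of variation of 25.9% in DBA/2 and 27.4% in C57BL/6. Intervals and floors cover counting error and library spread only.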
